A study of Mus musculus with 2 samples.

Results

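The immune and interferon genes described here were 6 of the 136 genes in the study's printed list of genes that differ between TRAMP and non-transgenic prostate: MPO, IFIT1, IFNL3, GPR15, SP140 and TNFSF10. The list prints a pair of log2 signals for each gene, and the members were located in the deposited table of 35557 rows as the 1 row, or the mean of 2 rows, holding that pair to 6 decimals in both samples. Each row is numbered as an Affymetrix transcript cluster, a set of probes that measures a transcript, although the array named in the methods reports probe sets. Of the 136 genes, 92 were located in this way on a single set of rows, 76 on 1 row and 16 on 2 rows, and the 6 members took up 7 rows. Because the members were chosen on these very values and on a 1.5-fold cut-off (0.585 in log2 units), their differences are given as a description and carry no test.

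The study compared the dorsolateral prostate of TRAMP mice (Transgenic adenocarcinoma of the mouse prostate), bred on C57BL/6 and carrying the SV40 large T antigen under a rat probasin promoter that is active in prostate epithelium, with that of C57BL/6 littermates lacking the transgene (genotype wildtype). Mice of both groups were 20 weeks old and received vehicle. The labels state that RNA was pooled before hybridization, and each group is 1 sample, so the spread between mice is unknown and no value has a replicate check. In whole tissue, fewer cells of a type and less RNA per cell cannot be told apart.

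The members come from several arms of immunity. Type I and type III interferons bind different receptors but act through a shared kinase and STAT pathway that switches on interferon-stimulated genes such as IFIT1, and IFNL3 is a type III interferon whose receptor is found mainly on epithelial cells. MPO belongs to neutrophil granules, GPR15 guides lymphocytes to mucosal tissue, SP140 is a chromatin reader of lymphoid and myeloid cells, and TNFSF10, known as TRAIL, is a death ligand that interferons can induce.

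Over the whole table the median log2 signal was 5.73 for the non-transgenic and 5.76 for the TRAMP sample, and the median difference, log2 TRAMP minus log2 non-transgenic, was 0.03. Of all rows 6.4% were higher and 2.44% were lower in the TRAMP sample past 1.5-fold (2276 and 869 of 35557). The split became 1437 higher and 1174 lower after a loess curve was fitted to difference against mean signal and subtracted, and 1404 and 1184 after quantile normalization. Rows that the table titles as unknown gene were past the cut-off more often, 11.1% higher and 8.98% lower among 6707 rows, than the other 28850 rows, with 5.31% higher and 0.925% lower. The SD of the difference was 0.488 among rows titled unknown gene and 0.292 among the other rows. None of the 7 member rows carries that title.

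Gene names in the table were out of step with its values. Of the 678 names carried by exactly 2 rows, the mean signals of both rows had a Pearson correlation of -0.02 and a Spearman correlation of -0.000547 across names (a description across genes that are not independent replicates). None of the 7 rows holding the members' values carries the name of its member. The members are therefore reported first by the rows with the printed values and then, separately, by the rows so named. Which of the 2 kinds of row measured the gene itself was not tested, since no annotation of the array was used here.

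The 4 members with a lower signal in the TRAMP sample were MPO, IFNL3, GPR15 and IFIT1, and the 2 members with a higher signal were SP140 and TNFSF10. All 6 passed 1.5-fold, as the printed list requires, so that this count is fixed by the choice of members and nothing is read from it beside the 2.44% of all rows that were lower and 6.4% that were higher.

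MPO, the myeloperoxidase with which neutrophils make hypochlorous acid, had the largest difference of the 6. Its row, transcript cluster 10521057, held log2 signals of 6.26 (non-transgenic) and 5.35 (TRAMP), or 76.7 and 40.8 on the linear scale. The TRAMP value was lower by 0.91 log2 units, which is 1.88-fold, and 227 of all rows had a lower difference. The table names this row Maea, the macrophage erythroblast attacher, an E3 ligase subunit.

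The interferon genes were both lower in the TRAMP sample. IFNL3, the secreted interferon lambda that signals through IFNLR1 and IL10RB, was held by transcript cluster 10563945, whose log2 signal was 7.61 without and 6.86 with the transgene (195.9 and 116.5 linear). It was lower in TRAMP by 0.75 log2 units or 1.68-fold, with 439 rows lower still. Its row carries a dash in place of a gene name.

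IFIT1, an interferon-induced protein that binds viral RNA lacking the host's cap methylation, was held by transcript cluster 10484779, which the table names Olfr1217, an olfactory receptor gene. Its log2 signal measured 5.80 in non-transgenic and 5.18 in TRAMP prostate (55.9 and 36.3 linear). The TRAMP value was 0.62 log2 units or 1.54-fold lower, and 745 rows had a lower difference. Of the 4 lower members it was nearest to the cut-off, which it passed by 0.0361 log2 units.

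Windows placed by the annotated starts of the IFIT1 and IFNL3 genes are shown. One carries the sequence through which interferon acts and the other is nearly duplicated in the genome. The Ifit1 promoter, from RefSeq on GRCm38.p6, spans the 300 bases chr19:34640639-34640938 around the gene start, on the plus strand. Capitals mark matches to the core of the interferon-stimulated response element, GAAA followed after any 2 bases by GAAA, searched on both strands (so that the complement reads TTTC and TTTC). The Ifit1 promoter holds 2, the first at position -104 from the start.
Ifit1 promoter: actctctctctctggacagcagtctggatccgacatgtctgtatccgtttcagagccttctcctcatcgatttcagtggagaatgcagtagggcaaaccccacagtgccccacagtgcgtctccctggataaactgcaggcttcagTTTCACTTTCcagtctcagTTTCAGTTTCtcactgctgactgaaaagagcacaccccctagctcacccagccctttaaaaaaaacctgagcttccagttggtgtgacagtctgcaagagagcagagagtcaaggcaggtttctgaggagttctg
This core was found in 1131 of 32851 RefSeq promoters of that length, or 3.44%. The windows of Mpo, Ifnl3, Sp140 and Tnfsf10 held no match, and that of Gpr15 held 1. None of the 6 members' windows held the core of the gamma-activated site, TTCNNNGAA, which 8.3% of promoters hold. The Ifnl3 window appears to hold coding sequence ahead of its annotated start. The absence of a match there therefore does not describe the bases upstream of the transcript. A match describes letters in its window and is no evidence of binding.

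Mouse Ifnl3 lies beside a near-identical copy, Ifnl2, so signal on a transcript cluster for either gene could come from both. Of the 300 bases in the windows placed by their annotated starts, 297 are identical. Both windows appear to include coding sequence. The first 181 bases of both windows follow, at chr7:28510430-28510610 on the minus strand for Ifnl2 and chr7:28522586-28522766 on the plus strand for Ifnl3 (RefSeq, GRCm38.p6), with the 3 mismatches in capitals.
Ifnl2: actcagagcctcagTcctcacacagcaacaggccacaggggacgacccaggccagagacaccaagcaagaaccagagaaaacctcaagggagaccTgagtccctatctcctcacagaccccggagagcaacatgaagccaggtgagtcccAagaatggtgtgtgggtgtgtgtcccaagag
Ifnl3: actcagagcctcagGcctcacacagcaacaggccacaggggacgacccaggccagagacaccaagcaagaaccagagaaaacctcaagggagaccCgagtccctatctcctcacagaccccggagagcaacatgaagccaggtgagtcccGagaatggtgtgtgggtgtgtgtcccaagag
The name column lists both genes on a shared row, under their older symbols Il28a and Il28b. A further row is named Il28a alone, with log2 signals of 6.58 (non-transgenic) and 6.64 (TRAMP), a difference of 0.07. Values of IFNL3 are therefore uncertain between the copies.

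GPR15, a chemoattractant receptor that directs T cells to the colon, was held by transcript cluster 10416099, named Adra1a for the alpha-1A adrenergic receptor. Non-transgenic prostate gave a log2 signal of 6.23 and TRAMP prostate 5.50 (75.0 and 45.3 linear). The TRAMP value was lower by 0.73 log2 units or 1.65-fold, and 479 rows had a lower difference. The single interferon-stimulated response element core of its promoter, in capitals, begins at position -213 from the gene start in the window chr16:58718823-58719122 on the minus strand (RefSeq, GRCm38.p6).
Gpr15 promoter: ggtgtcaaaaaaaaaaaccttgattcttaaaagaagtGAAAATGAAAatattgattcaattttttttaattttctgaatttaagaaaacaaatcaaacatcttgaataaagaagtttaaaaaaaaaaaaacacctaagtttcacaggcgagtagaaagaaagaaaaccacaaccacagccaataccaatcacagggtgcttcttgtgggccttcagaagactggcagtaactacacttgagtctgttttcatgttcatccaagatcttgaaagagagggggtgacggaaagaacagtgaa

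SP140 had the largest upward difference of the members and was the only one of the 6 read from 2 rows. Transcript cluster 10486425, named Pla2g4d for a phospholipase A2, held log2 signals of 7.98 for non-transgenic and 8.81 for TRAMP prostate (252.4 and 448.1 linear), a difference of 0.83 or 1.78-fold. Transcript cluster 10541061, named Olfr211 for an olfactory receptor, held 7.15 and 8.01 (142.0 and 257.7 linear), a difference of 0.86 or 1.81-fold. Both rows were thus higher in the TRAMP sample by nearly the same amount. Their means were 7.56 and 8.41, a difference of 0.84 or 1.79-fold, with 809 and 687 rows that had a higher difference. In the GRCm38.p6 annotation Sp140 overlaps Sp110, another bromodomain gene of the SP100 family, so probes for either could share signal.

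TNFSF10 was the member closest to the cut-off. This ligand triggers apoptosis through the death receptor TNFRSF10B, the adaptor FADD and caspase-8. Transcript cluster 10485819, named RP23-336F11.32 and titled nuclear protein in testis, held log2 signals of 4.97 for non-transgenic and 5.57 for TRAMP prostate (31.3 and 47.4 linear). The TRAMP value was higher by 0.60 log2 units or 1.51-fold, only 0.0129 log2 units beyond the cut-off, and 2174 rows had a higher difference.

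**Figure D1:**
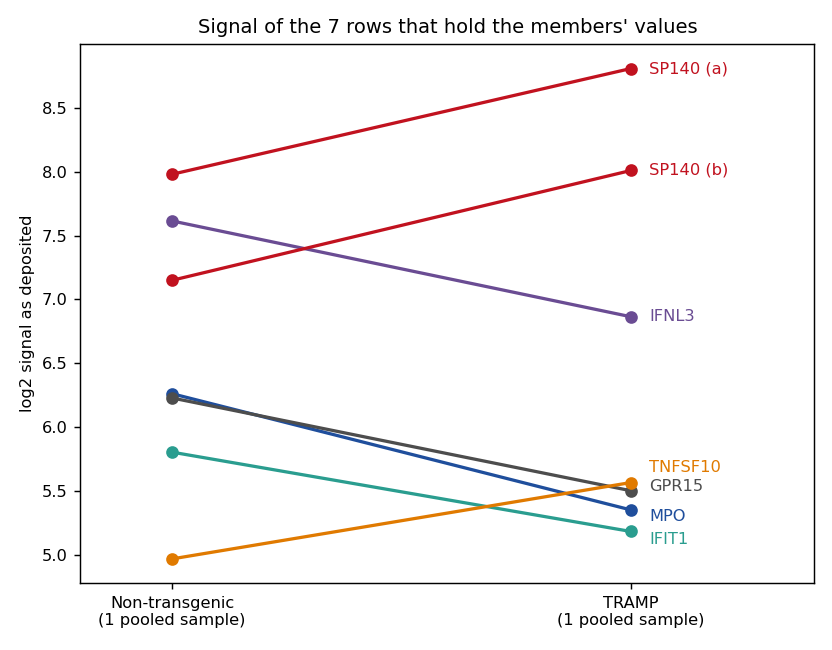
Log2 signal as deposited (vertical axis) in the non-transgenic and the TRAMP sample (horizontal axis, 1 pooled sample each) for the 7 rows that hold the members' values, with a line per row and no error bars because each group has 1 sample. The lines of MPO, IFIT1, IFNL3 and GPR15 slope down and those of both SP140 rows (a, transcript cluster 10486425; b, transcript cluster 10541061) and TNFSF10 slope up; heights of different genes are not comparable.

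How unusual a difference of this size was depended on the signal, because brighter rows tended to be higher in the TRAMP sample. Each member row was therefore set beside all rows whose mean log2 signal lay within 0.25 of its own. The loess curve through all rows was 0.02 at the signal of MPO, IFIT1 and TNFSF10, 0.03 at GPR15, 0.10 at IFNL3 and 0.24 at SP140. After this curve was subtracted, SP140 was 0.60 log2 units higher in TRAMP, or 1.52-fold, and TNFSF10 was 0.58 higher and no longer past 1.5-fold. The other 4 members were then lower by 0.64 to 0.93 log2 units, each at least as far from 0 as before.

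**Figure D2:**
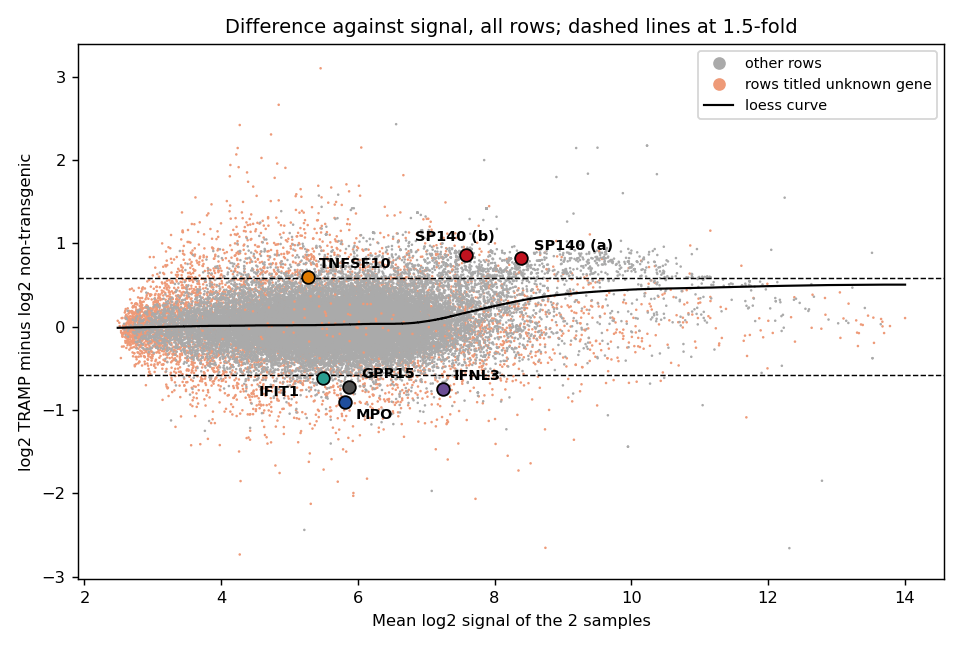
Difference between the samples (vertical axis, log2 TRAMP minus log2 non-transgenic) against the mean log2 signal of both samples (horizontal axis) for all 35557 rows, each a point, with a loess curve and dashed lines at 1.5-fold. The curve lies near 0 at the signal of MPO, GPR15, IFIT1 and TNFSF10 and rises to 0.24 at that of SP140, while rows titled unknown gene spread more widely than the others.

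Among 6081 rows of like signal, MPO lay at percentile 0.543, and 34 rows (0.559%) were as low or lower. GPR15 lay at percentile 0.862 of 6147 rows, with 54 rows as low. IFNL3 lay at percentile 1.56 of 1926 rows, with 31 as low, and IFIT1 at percentile 1.87 of 5497 rows, with 104 as low. These 4 rows lay outside the central 95% of their neighbours in signal. That range ran from -0.54 to 0.64 log2 units for MPO and from -0.61 to 0.89 for IFNL3. Its lower bound was -0.54 for GPR15 and -0.56 for IFIT1. For MPO, GPR15 and IFIT1 this bound lay inside the 1.5-fold cut-off (0.585) used to choose members. Their place outside the range was therefore fixed by that choice, and nothing is read from it. For IFNL3 the bound of -0.61 lay only slightly beyond the cut-off. Most of its neighbours past the cut-off downward also lay outside the range. The place of IFNL3 was therefore nearly fixed by the same choice, and nothing is read from it. Rows past 1.5-fold downward made up 1.83% of the neighbours of MPO, 1.81% for GPR15, 2.24% for IFIT1 and 2.96% for IFNL3.

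The higher members were less far from their neighbours. The brighter SP140 row lay at percentile 97.3 of 551 rows, whose median difference was 0.27 and of which 30.3% were past 1.5-fold upward. The dimmer SP140 row lay at percentile 96.4 of 1180 rows, with a median of 0.12 and 15.2% past the cut-off upward. TNFSF10 lay at percentile 96.0 of 4852 rows, with 196 rows as high. All 3 of these rows were inside the central 95% of their neighbours. Whether lower members differ from higher ones in this respect was not tested.

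**Figure D3:**
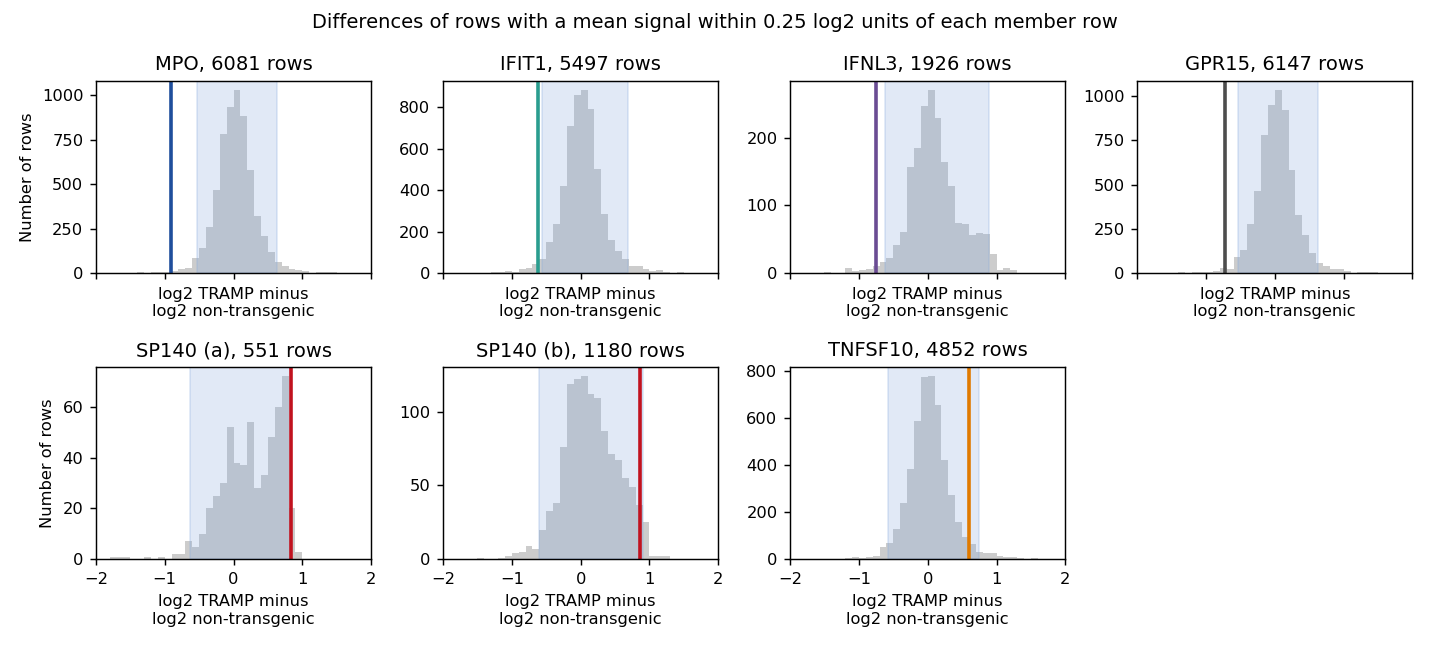
Each panel is a histogram of the differences (horizontal axis, log2 TRAMP minus log2 non-transgenic; vertical axis, number of rows) of all rows whose mean log2 signal lies within 0.25 of a member row, with the member as a coloured line and the central 95% shaded. The lines of MPO, IFIT1, IFNL3 and GPR15 lie left of the shading, and those of SP140 (a and b) and TNFSF10 lie inside it near its right edge.

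Rows titled unknown gene took up much of the lower tail. With these left out, 5 of 5459 rows were as low as MPO (percentile 0.0733), 8 of 5533 as low as GPR15 (percentile 0.127), 6 of 1590 as low as IFNL3 (percentile 0.314) and 38 of 4868 as low as IFIT1 (percentile 0.760). TNFSF10 moved to percentile 97.9 of 4240 rows and so joined the rows outside the central 95%, making 5 of 7. For these 5 rows the bound of the central 95% lay inside the 1.5-fold cut-off (0.585) used to choose members. It was 0.577 for TNFSF10 and -0.44 to -0.46 for MPO, GPR15, IFNL3 and IFIT1. The count of 5 was therefore fixed by that choice. The SP140 rows were at percentile 96.4 of 412 and of 905 rows, and the median of their neighbours was 0.45 and 0.17. This comparison was added after the data were seen.

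Rows carrying the members' own names gave different values. The row named Mpo gave log2 signals of 6.53 without and 7.64 with the transgene, higher in TRAMP by 1.11, the opposite direction to the row with the printed values. The row named Tnfsf10 was also opposite, at 5.90 and 5.23, lower in TRAMP by 0.66. Gpr15, at 4.37 and 4.52, differed by 0.15, again with the other sign but inside the cut-off.

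The remaining named rows kept the sign and were smaller. Ifit1 had 5.56 and 5.39, a difference of -0.17. The row shared by Il28b and Il28a had 4.48 and 4.34, a difference of -0.14. The rows listing Sp140, 1 of them shared with another gene, averaged 5.49 and 5.66, a difference of 0.17. The row named Sp140 alone differed by only 0.01, and the shared row by 0.32. By name, 2 of the 6 members were past 1.5-fold and 4 were inside it, and for 3 members the sign differed between the kinds of row.

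**Figure D4:**
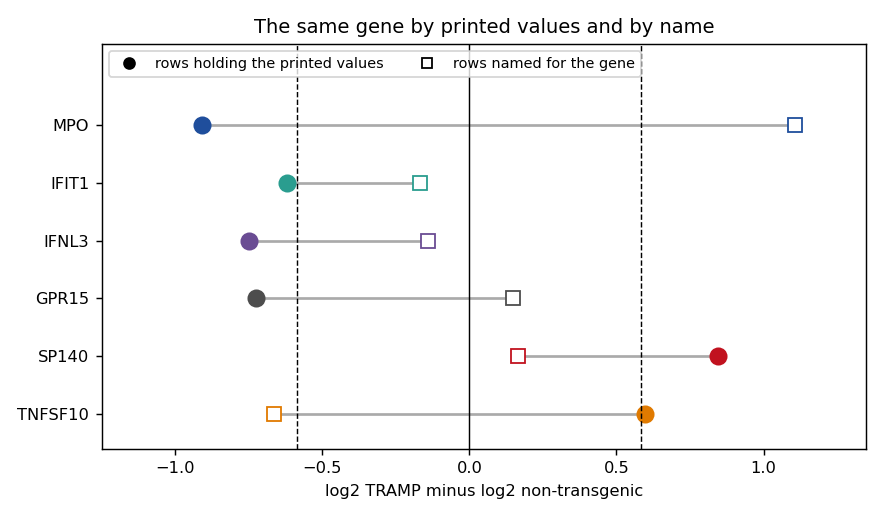
For each member (vertical axis) the difference between the samples (horizontal axis, log2 TRAMP minus log2 non-transgenic) on the rows with the printed values (filled circles) and on the rows named for the gene (open squares), with dashed lines at 1.5-fold. The symbols lie on opposite sides of 0 for MPO, GPR15 and TNFSF10 and on the same side for IFIT1, IFNL3 and SP140.

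The pathways around the members could be read only through the name column, so the following values describe rows so named and not necessarily the genes. Over all 21308 names, 5.11% were higher and 0.91% lower in TRAMP past 1.5-fold, with a median difference of 0.04. Of 96 genes in 6 immune and interferon lists, 93 had a row of their own name, of which 8 (8.6%) were higher and 1 (1.08%) was lower.

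Of 30 interferon-stimulated genes, 29 had a row, 2 were higher and 0 lower, with a median difference of 0.08. The higher ones were the rows named Isg15, a ubiquitin-like modifier, at 0.66 and Oasl1, a relative of the oligoadenylate synthetases, at 0.84. Among 13 of 14 interferons, receptors and receptor kinases with a row, the median was 0.05, and 1 row, named for the shared receptor chain Il10rb, was higher, by 0.70. No row of either list was lower past the cut-off, beside 0.91% lower over all names. The rows with the printed values of IFIT1 and IFNL3 were lower past it by the choice of members. Nothing is therefore read from setting them beside these lists.

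In the TRAIL and death receptor list, all 15 genes had a row, with a median of 0.08. The row named Fadd (0.71), for the adaptor, was higher and the row named Tnfsf10 (-0.66) was lower. Of 15 neutrophil genes, Mpo (1.11) and Prtn3 (0.81), a granule protease, were higher, none was lower and the median was 0.01.

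Of 15 leukocyte homing receptors, the chemokine receptor row named Cxcr4 was higher by 0.86, none was lower and the median was 0.20. In the SP100 family and nuclear body list, 6 of 7 genes had a row and none passed the cut-off, with a median of 0.01. Rows named for T cell, B cell, macrophage, NK cell, smooth muscle and prostate epithelium markers included none past 1.5-fold. Their median differences ran from -0.05 for 9 prostate epithelium markers to 0.22 for 5 NK cell markers. The prostate epithelium names had a median log2 signal of 6.13 against 5.83 over all names. Since names were out of step with values, the tissue label could not be checked through them.

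Among the other immune genes of the printed list, located by their values, LST1, a leukocyte transcript, was lower in TRAMP by 0.63 log2 units and the NK cell receptor KIR3DL1 by 0.61. Higher were KIR3DL2 (0.67), the cytokine IL24 (0.71), the cytokine signalling inhibitor SOCS2 (0.72) and the atypical chemokine receptor ACKR1 (0.76). SP110 was not found on 1 or 2 rows. The printed list thus held immune genes in both directions, among 29 lower and 63 higher genes of the 92 located.

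The genes of the printed list with the nearest difference, a likeness over 2 samples only, were SOSTDC1 (-0.91) and SPRR1A (-0.85) for MPO, GPR45 (-0.62) and LRRN3 (-0.63) for IFIT1, and PPP1R3G (-0.75) and LYNX1 (-0.77) for IFNL3. For GPR15 they were UGT2A3 (-0.71) and PPP1R3G, for SP140 MRPL23 (0.85) and NACA (0.83), and for TNFSF10 KRT26 and UBE2H (0.60 each).

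Across scalings, MPO, IFNL3 and SP140 (as the mean of its 2 rows) stayed past 1.5-fold in the same direction. The scalings were median centring, loess, quantile normalization and an offset of 16 on the linear scale. With loess the brighter SP140 row alone fell inside 1.5-fold. IFIT1 and GPR15 moved inside it with the offset (-0.46 and -0.57). TNFSF10 was inside it under each of the 4, at 0.42 to 0.58.

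**Figure D5:**
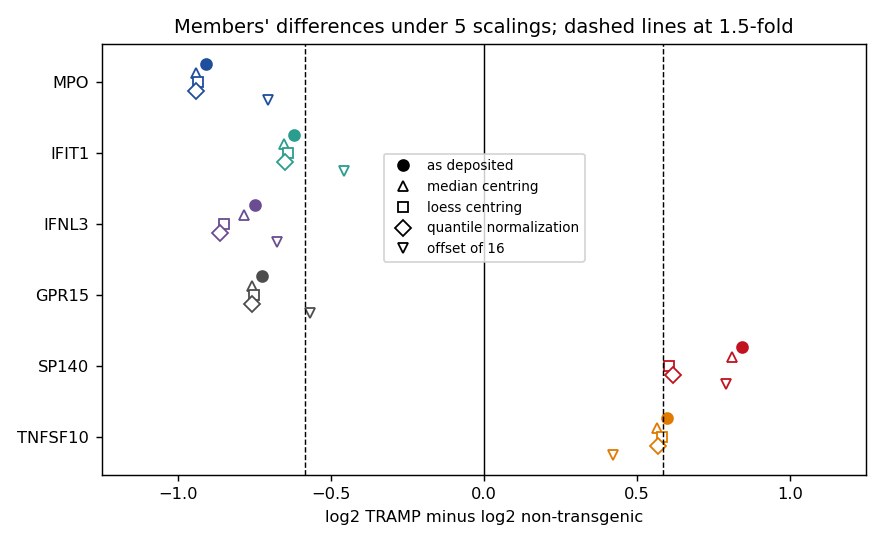
Difference of each member (horizontal axis, log2 TRAMP minus log2 non-transgenic; vertical axis, member) on the rows with its printed values, as deposited and under 4 other scalings, with dashed lines at 1.5-fold. No member crosses 0 under these scalings, and the symbols of TNFSF10 other than the deposited value lie between 0.42 and 0.58.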

How the data were processed

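Per the study's methods, total RNA was amplified with biotin-UTP and hybridized to an Affymetrix mouse array, and images were analysed with dChip. The array type is not settled, since the methods name an array that reports probe sets, the rows are numbered transcript clusters, and the labelling protocol in the labels describes adapter ligation and Cy3 staining of miRNA. Normalization, array annotation and genome build are not given in the sources used here. The authors deposited a log2 signal per transcript cluster for each sample (1 pooled sample per group, so their number limits the precision) and an intensity equal to 2 to the power of it. Deposited columns with the quotient of the log2 values and its log2 are the authors' own comparison and were not used, nor was a shorter table derived from the first.

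Members and lists were chosen with earlier results of these data known. Named genes were the members, list genes past 1.5-fold by name, immune genes of the printed list, and the 2 nearest genes per member. Some genes that this rule names are not reported here. List genes were matched directly or through older symbols, as a mean over rows of a name. Differences, percentiles, loess (fraction 0.3), quantile normalization and an offset of 16 were computed in Python 3.11.15 with numpy 2.4.6, pandas 2.3.3 and statsmodels 0.14.6, with figures by matplotlib 3.10.9, and tested on simulated data. With 1 sample per group no test was made. Alternatives were other scalings, cut-offs of 2-fold and 1.2-fold, filters on dim or repeated rows, other signal windows and rows by name.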

Additional observations from a re-analysis of the deposited data

How the results depend on the processing

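Of 125 alternative values, 109 were planned and 16 added after the data were seen. The direction of a difference turned only on the rows named for the gene, for MPO (1.11), GPR15 (0.15) and TNFSF10 (-0.66), and those rows put IFIT1 (-0.17), IFNL3 (-0.14) and SP140 (0.17) inside 1.5-fold. With an offset of 16, IFIT1 (-0.46), GPR15 (-0.57) and TNFSF10 (0.42) were inside it. TNFSF10 was also inside it under median centring (0.56), loess (0.58) and quantile normalization (0.57). Of the 2 higher members, 1 stayed past the cut-off under median centring, loess, quantile normalization, the offset and without rows below the median signal, where TNFSF10 and IFIT1 had no value, and 0 at 2-fold. Of the 4 lower, 2 stayed with the offset and 0 at 2-fold. On named rows none of the 6 stayed past the cut-off in its direction: 1 member was higher past it, MPO, and 1 was lower, TNFSF10, both turned in direction. Over all rows, the 2276 higher became 1437 with loess, 1404 with quantile normalization, 1463 with the offset, 352 at 2-fold, 7351 at 1.2-fold and 1512 without dim rows. The 869 lower became 377 with the offset, 163 at 2-fold, 4465 at 1.2-fold, 394 without dim rows and 267 without rows titled unknown gene, an added alternative. Counts without dim rows (those below the median signal) or without rows titled unknown gene cover fewer rows. A smaller count there is therefore not a smaller share. Of the list genes by name, the 8 higher became 5 with loess, quantile normalization, the offset or no dim rows, 1 at 2-fold and 24 at 1.2-fold, and the 1 lower became 0 with the offset, at 2-fold or without dim rows and 8 at 1.2-fold. The brighter SP140 row moved outside the central 95% of rows of like signal within 0.1 log2 units (percentile 98.3) and with each pair of values counted once (97.9), and TNFSF10 did without rows titled unknown gene (97.9, added). The place of TNFSF10 there was fixed by the cut-off used to choose members. The cause of the other changes was not tested. No paired analysis was possible because 1 sample was deposited per group. An annotation of the array was not used here, so the alternative that needs it was not run. Members near the cut-off, dim rows and names out of step with values limit these results.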
